A study of Mus musculus with 41 samples.

Results

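Microglia sorted from the cerebellum of untreated Niemann-Pick type C (NPC) mice at 6 weeks of age were set against the same cells from NPC mice at 3 weeks, to ask what changed inside the mutant as disease advanced. The comparison takes the 8 NPC libraries that the labels give for these ages, 4 at 6 weeks (A to D) and 4 at 3 weeks (A to D), out of 41 libraries in the series. NPC mice carry the strain label BALB/cNctr-Npc1m1N/J, and wild-type (WT) mice of the same ages, also 4 libraries each, carry the label balb/c. All were untreated, and nothing in the labels limits the mutation to microglia. The rest of the series holds both genotypes at 1 and 9 weeks and a drug arm at 9 weeks. Cells positive for CD11b and Tmem119 were sorted by flow cytometry, and their RNA was amplified with SMART-seq v4 chemistry before paired-end sequencing. Mice are the replicates per the series' design text, and the error in every test below is that between animals.

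Npc1 is a membrane protein that moves cholesterol out of lysosomes, and its loss leaves cholesterol and other lipids stored there. Purkinje neurons of the cerebellum are among the cells lost early in the disease. Microglia are the resident macrophages of the brain. They divide in early postnatal life and then renew slowly, and in neurodegeneration they can switch on a disease-associated set of genes that includes Axl, Itgax and Cst7. Before dividing, a cell first makes the helicase and polymerase machinery of DNA replication and later the spindle, checkpoint and cytokinesis proteins of mitosis.

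The labels were checked against the genes that define them. Npc1 had 745, 439, 291 and 698 normalized counts in the NPC libraries A to D at 6 weeks and 659, 550, 378 and 622 in A to D at 3 weeks. A normalized count is the authors' read count divided by a size factor of the library. WT libraries held 6203 ± 1115 at 6 weeks and 6656 ± 616 at 3 weeks (SD, n = 4 each), far above every NPC library, and the log2 change between the NPC ages was -0.09 ± 0.24 (SE, limma adjusted p = 0.894). Tmem119, a sort marker, had 161398 to 170320 normalized counts in NPC at 6 weeks and 140860 to 242440 at 3 weeks. All 9 microglia identity genes were detected in all 8 libraries, and none passed in limma or edgeR (0 higher and 1 lower in limma at an unadjusted p under 0.05), while DESeq2 called 1, Fcrls, lower. The median log2 change of the 9 genes was -0.07. Without NPC 3w C, a library described below, it was -0.16, with 0 higher and 2 lower at that unadjusted threshold. Since RNA was pooled over cells, a smaller share of cells expressing a gene and less RNA per cell cannot be told apart in any result here.

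The 8 libraries held 26.6 to 36.1 M recovered reads (M, 1e+06), close to the range of 23.2 to 40.5 M over the series, so depth was similar between the ages. One library stood furthest apart. NPC 3w C had 12003 genes with at least 3 reads, against 13042 to 13605 in the other 7, and its normalized counts summed to 37.2 M, against 30.0 to 34.3 M. On the first principal component of the 8 libraries, which took 41.9% of the variance, it lay at 161 and the others between -41.5 and 4.81. Its values followed transcript length: relative to the other 3 libraries at 3 weeks, genes in the bin of the shortest transcripts had a median log2 deviation of 0.84 and those in the bin of the longest -1.45, with 10 equal bins. Itgam, which encodes the sort marker CD11b and has a long transcript, had 18335 normalized counts there and 47245 to 50372 in the other libraries at 3 weeks. The calls, most list medians and most named genes between the NPC ages are therefore also given without NPC 3w C. NPC 6w B and C differed too. On the second component (19.3% of the variance) they lay at -72.0 and -69.3, and the others between -1.68 and 43.0. Against their group they ran from 0.27 and 0.32 in the shortest bin to -0.27 and -0.31 in the longest. That was the direction of NPC 3w C, while NPC 6w A and D ran the other way.

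**Figure D1:**
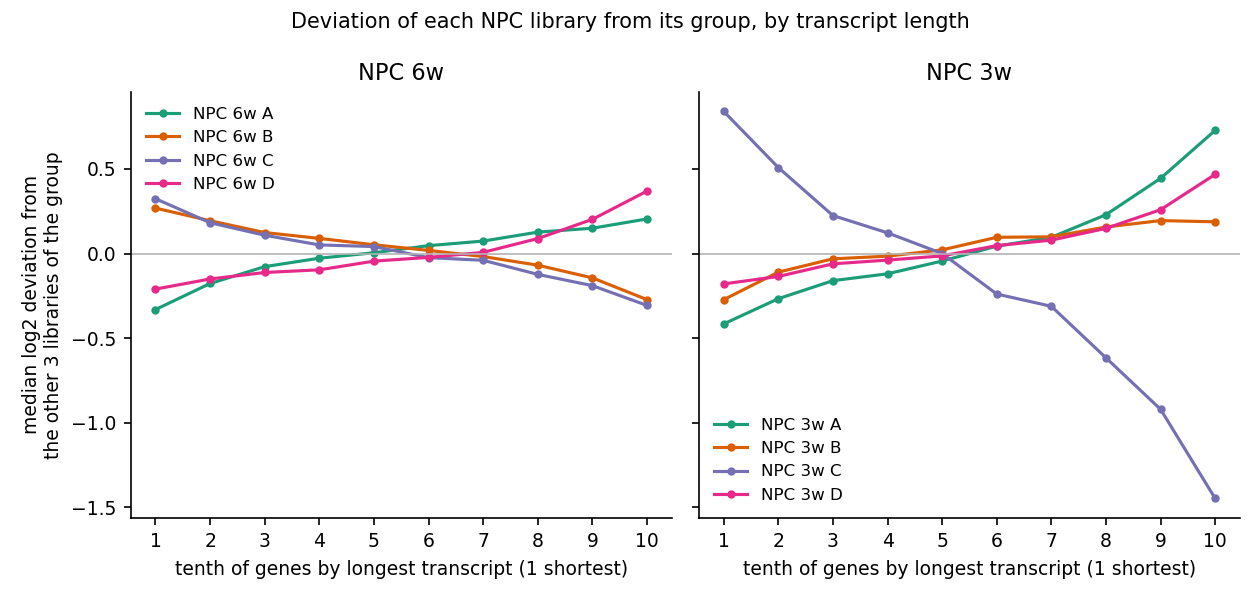
Median log2 deviation of each NPC library from the other 3 of its group (y) for equal bins of genes ordered by their longest transcript (x); 6 weeks left, 3 weeks right, 1 line per library. NPC 3w C runs from 0.84 in the shortest bin to -1.45 in the longest, while the libraries at 6 weeks stay between -0.33 and 0.37 at both ends.

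Among 14046 genes tested with limma, 23 rose and 9 fell in NPC microglia at 6 weeks relative to 3 weeks at an adjusted p under 0.05, or 0.164% and 0.0641% of the genes. At an unadjusted p under 0.05 the shares were 6.44% higher and 4.26% lower. Of the 23, 4 are on the DNA replication list and 5 on the mitosis list, and Axl, a receptor tyrosine kinase that helps phagocytes take up dying cells, rose with them. The genes that fell include the chemokine receptor Ccr1, the orphan receptor Gpr165 and Crybb1, a crystallin gene used as a marker of resting microglia. For 30 of the 32 genes the 4 libraries of one age did not overlap with those of the other, and the exceptions were Bub1 and Axl. Over all genes tested, the libraries did not overlap for 2.04% in the higher direction and 1.46% in the lower.

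Which genes passed depended on single libraries. Without NPC 3w C, 19 genes rose and 5 fell (0.135% and 0.0357% of 14023), and 13 of these 24 were among the 32. Without NPC 6w A or without NPC 3w D only 7 genes passed, and without NPC 6w B or NPC 6w C only 9. The test takes its spread from all 31 libraries of the time course; with the 8 NPC libraries alone no gene passed in limma (434 at an unadjusted p under 0.05, smallest adjusted p 0.308). On the recovered reads edgeR called 40 genes and DESeq2 145. Uhrf1, Tmem44 and Ccr1 were the 3 genes that passed whichever of the 8 NPC libraries was left out, and all 32 kept their direction under all 30 alternatives.

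**Figure D2:**
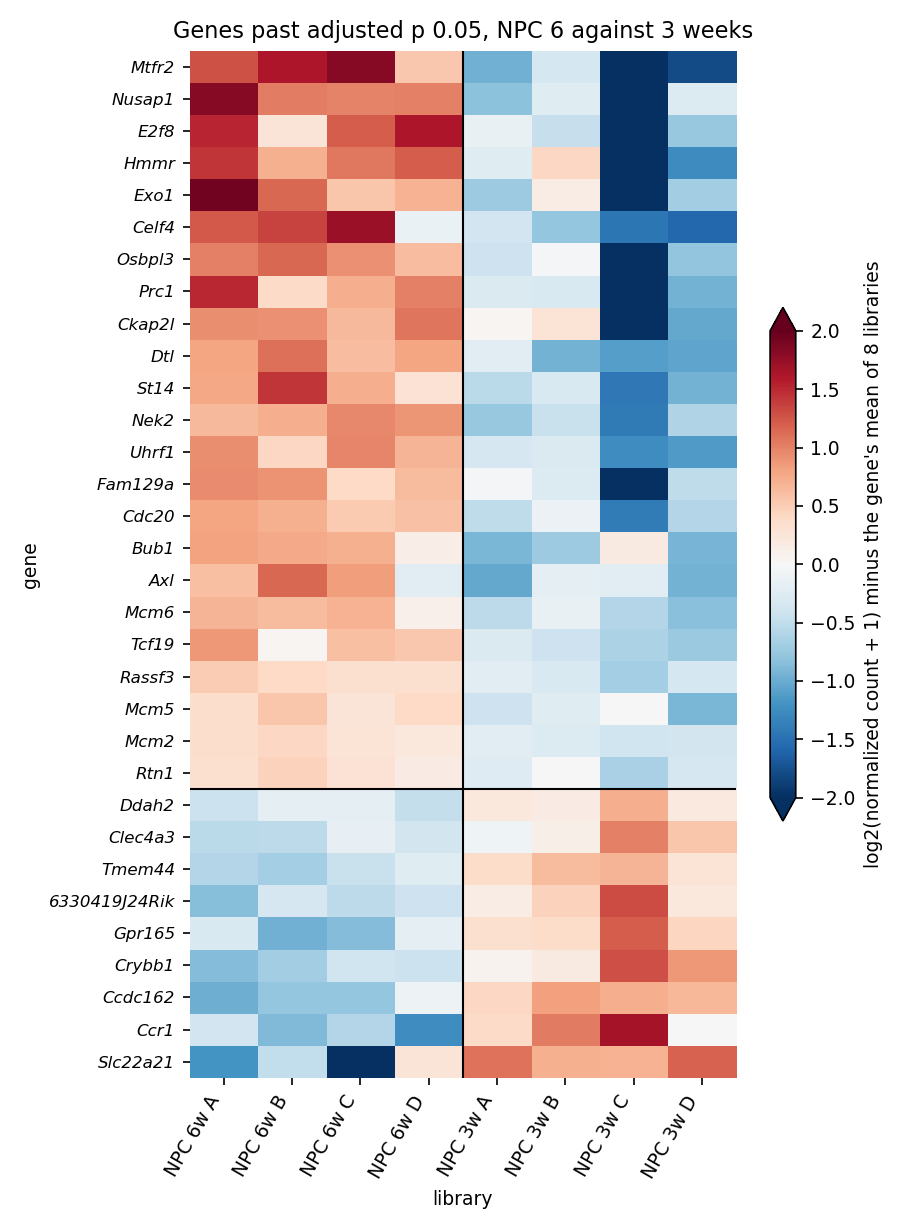
Each row is 1 of the 32 genes past the threshold, each column 1 library (NPC 6 weeks left of the line, 3 weeks right of it); colour gives log2(normalized count + 1) minus the gene's mean over the 8 libraries. The 23 genes above the line rose and the 9 below fell; NPC 3w C is the lowest library at 3 weeks in 17 of the 23 and the highest in 7 of the 9.

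The smallest adjusted p belonged to a gene of the DNA replication list. Uhrf1, which brings the maintenance DNA methyltransferase to newly copied DNA, had 741, 520, 769 and 619 normalized counts in libraries A to D at 6 weeks and 306, 316, 164 and 177 in A to D at 3 weeks. Every library at 6 weeks lay above every library at 3 weeks, by a fold of 2.84 (95% interval 2.09 to 3.84, limma adjusted p = 0.00147; 0.00275 without NPC 3w C).

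Mcm2, Mcm5 and Mcm6 encode subunits of the helicase that opens DNA for copying. Mcm6 had 1239, 1201, 1257 and 834 normalized counts at 6 weeks and 539, 698, 515 and 433 at 3 weeks, a rise of 2.07-fold (1.58 to 2.73, adjusted p = 0.0139; 0.0199 without NPC 3w C). Mcm5 had 1500.2, 1738, 1408 and 1554 at 6 weeks and 884, 999, 1184 and 626 at 3 weeks, a rise of 1.72-fold (1.39 to 2.12, adjusted p = 0.0194; 0.00275 without NPC 3w C). The libraries of the ages did not overlap for either gene, and the low values were NPC 6w D for Mcm6 and NPC 3w D for both. Mcm2 rose less, by 1.54-fold (1.28 to 1.87, adjusted p = 0.0389), and missed the threshold without NPC 3w C (adjusted p = 0.0767).

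Of the 31 genes on the DNA replication list, all tested, 4 rose and none fell, with 15 higher and 0 lower at an unadjusted p under 0.05. The list's median log2 change was 0.48, against 0.02 over all genes tested, and 0.52 without NPC 3w C. Positive values were seen in 29 of the 31. On the reads edgeR called 5 of the 31 and DESeq2 8, all higher. Among those that missed the limma threshold, Mcm7 had 1488, 1449, 1544 and 1447 normalized counts at 6 weeks and 918, 1052, 988 and 1296 at 3 weeks (adjusted p = 0.068; 0.154 without NPC 3w C), and Cdc6, which loads the helicase onto DNA, had 124, 34.5, 36.0 and 159 against 38.6, 17.1, 7.80 and 18.9 (adjusted p = 0.0576; 0.207 without NPC 3w C). Cdc6 was high in NPC 6w A and D, and the ages overlapped. Mcm7 and Cdc6 were picked after their values were seen. Dtl, the receptor of a ubiquitin ligase that destroys replication factors once they have acted, is on no list; it rose 3.14-fold (1.89 to 5.22, adjusted p = 0.04; 0.0859 without NPC 3w C), with 186, 232, 165 and 187 at 6 weeks and 92.2, 55.5, 49.4 and 51.3 at 3 weeks.

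On the mitosis list, Nusap1, which binds spindle microtubules, had 358, 207, 203 and 205 normalized counts in A to D at 6 weeks and 57.0, 85.4, 7.80 and 83.8 in A to D at 3 weeks. NPC 6w A was high and NPC 3w C very low, and no libraries overlapped. The rise was 5.38-fold (2.97 to 9.76, adjusted p = 0.0107), and without NPC 3w C the log2 change was 1.65 in place of 2.43 (adjusted p = 0.00154).

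Prc1, which bundles microtubules of the central spindle for cytokinesis, had 527, 239, 305 and 371 normalized counts at 6 weeks and 150.1, 148, 42.9 and 95.3 at 3 weeks. It rose 3.505-fold (2.25 to 5.45, adjusted p = 0.0107; 0.0119 without NPC 3w C). Prc1 and Uhrf1 were also 2 of the 3 genes that passed when NPC 6w B and C were both left out, with Cdc6 the third gene. Cdc20, the activator of the ubiquitin ligase that ends metaphase, had 440.1, 418, 369 and 382 at 6 weeks and 179, 236, 96.2 and 169.7 at 3 weeks. It rose 2.47-fold (1.69 to 3.59, adjusted p = 0.0255), with no overlap, and missed the threshold without NPC 3w C (adjusted p = 0.0837).

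Hmmr, a spindle protein and hyaluronan receptor, had 167, 101, 128 and 144 normalized counts at 6 weeks and 52.0, 82.2, 5.20 and 25.1 at 3 weeks, a rise of 4.60-fold (adjusted p = 0.0437; 0.106 without NPC 3w C). Bub1, a kinase of the spindle checkpoint, behaved the other way. Its libraries overlapped, since NPC 6w D (99.6) lay under NPC 3w C (103); the rest held 149.9 to 159.9 at 6 weeks and 47.1 to 54.4 at 3 weeks. Its adjusted p was 0.0322 with NPC 3w C and 0.00369 without it. Off the list, Nek2, a centrosome kinase, rose 3.06-fold (adjusted p = 0.0235) and Ckap2l, a spindle protein, 3.42-fold (adjusted p = 0.0437), and both missed the threshold without NPC 3w C (adjusted p = 0.079 and 0.0837).

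On the mitosis list of 31 genes, 5 rose and none fell, and 25 were higher and 0 lower at an unadjusted p under 0.05. The median log2 change was 1.01, and 0.99 without NPC 3w C, where 7 members passed. It was 1.07 without NPC 6w B and C. DESeq2 called 17 of the 31 and edgeR 6, all higher. The libraries of the NPC ages did not overlap for 12 members, all higher, against 2.04% of all genes tested in that direction. In WT the libraries of the same ages also did not overlap for 12 members, all higher, against 445 of the 14046 genes tested. Members past the limma threshold without NPC 3w C but not with it included Racgap1, a regulator of cytokinesis, with 529, 408, 463 and 454 normalized counts at 6 weeks and 280.0, 279.6, 386 and 200.1 at 3 weeks (adjusted p = 0.0576 with it and 0.0117 without it); DESeq2 called it with all libraries in. Racgap1 was picked after its values were seen.

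In both lists the rise at 6 weeks was small beside the level of the first postnatal week. The mean log2(normalized count + 1) of the mitosis list in NPC libraries was 10.59 ± 0.09 at 1 week, 6.48 ± 0.25 at 3 weeks, 7.56 ± 0.22 at 6 weeks and 6.87 ± 0.24 at 9 weeks (SD, n = 4, with n = 3 at 9 weeks). In WT it was 10.79 ± 0.12, 5.70 ± 0.08, 6.45 ± 0.25 and 6.70 ± 0.16 at the same ages (SD, n = 4 each). NPC libraries at 6 and 3 weeks did not overlap for either list's mean. This was not particular to these lists. The inflammatory list (lowest at 6 weeks 9.50, highest at 3 weeks 9.22) and the interferon list (9.92 and 9.89) did not overlap either. Nor did the homeostatic list, which was lower at 6 weeks (highest at 6 weeks 15.118, lowest at 3 weeks 15.123). For the DNA replication list the NPC means were 10.57 ± 0.08, 7.90 ± 0.13, 8.52 ± 0.10 and 8.27 ± 0.16 at 1, 3, 6 and 9 weeks, and the WT means 10.53 ± 0.11, 7.52 ± 0.15, 7.67 ± 0.06 and 7.79 ± 0.13. Uhrf1 alone averaged 3518, 241, 662 and 355 normalized counts in NPC at these 4 ages. These levels over age were not tested here.

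**Figure D3:**
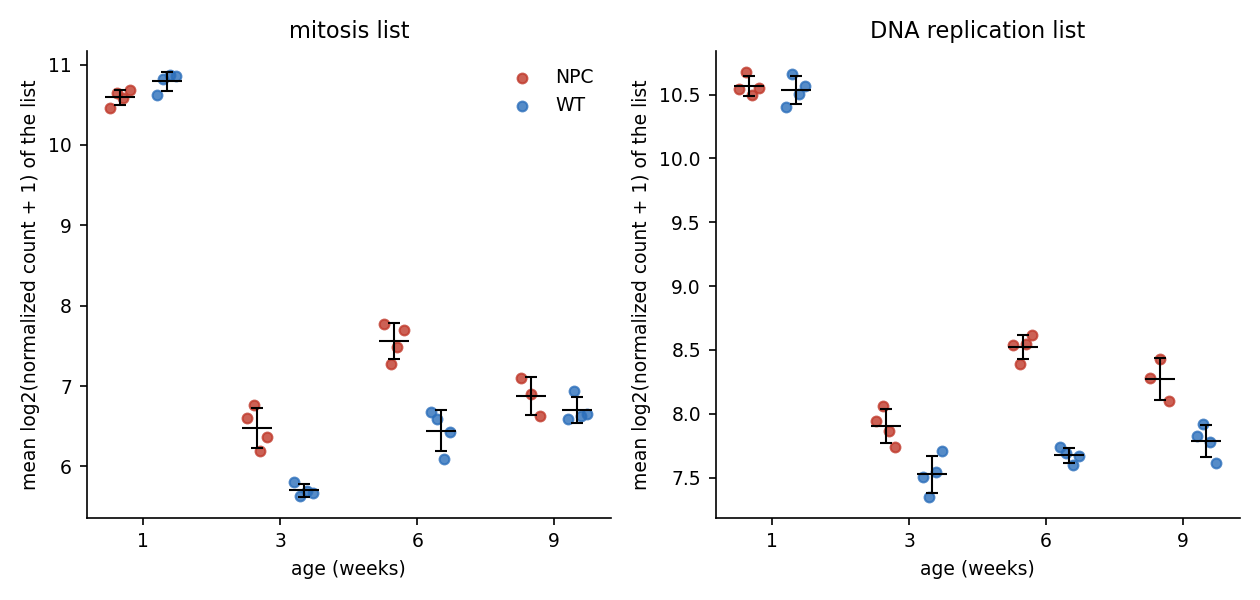
Mean log2(normalized count + 1) of the mitosis list (left) and the DNA replication list (right) in each library (points) by age in weeks, NPC left of WT; black marks are the group mean and SD. At 6 weeks the NPC means, 7.56 and 8.52, lie above those at 3 weeks, 6.48 and 7.90, and far under those at 1 week.

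The promoters of these genes were read to show what the 2 lists carry near their start sites. Replication genes are classically regulated through E2F sites, searched here on both strands as TTTCCCGC, TTTGGCGC, TTTCGCGC or TTTGCCGC, and late mitotic genes through the cell cycle homology region, searched as TTTGAA. Windows run from 250 bases before to 50 after a RefSeq start (GRCm38.p6), and 10529 of the 14046 genes tested had one. An E2F match lay in the windows of 10 of 26 replication genes (38.5%) and 1 of 27 mitosis genes (3.70%), against 4.60% of all. TTTGAA lay in 21 of 27 mitosis genes (77.8%) and 3 of 26 replication genes (11.5%), against 13.97% of all. Of the 23 genes that rose, 18 had a window; 4 held an E2F match and 7 TTTGAA, while of the 6 that fell and had a window none held either. A match describes letters only and shows no binding. A pair of replication genes and a pair of mitosis genes that rose are shown 5′ to 3′ on the gene's strand with the matches in capitals, overlapping matches as 1 run. Mcm6 lies at chr1:128359656-128359955 (minus strand), Uhrf1 at chr17:56304063-56304362 (plus), Prc1 at chr7:80294201-80294500 (plus) and Cdc20 at chr4:118437294-118437593 (minus).
Mcm6: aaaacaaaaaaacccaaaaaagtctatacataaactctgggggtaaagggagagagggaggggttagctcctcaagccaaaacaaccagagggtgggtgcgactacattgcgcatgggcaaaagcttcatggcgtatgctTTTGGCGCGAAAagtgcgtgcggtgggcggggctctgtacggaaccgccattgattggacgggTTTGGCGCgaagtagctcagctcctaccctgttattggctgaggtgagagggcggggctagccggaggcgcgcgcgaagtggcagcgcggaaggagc
Uhrf1: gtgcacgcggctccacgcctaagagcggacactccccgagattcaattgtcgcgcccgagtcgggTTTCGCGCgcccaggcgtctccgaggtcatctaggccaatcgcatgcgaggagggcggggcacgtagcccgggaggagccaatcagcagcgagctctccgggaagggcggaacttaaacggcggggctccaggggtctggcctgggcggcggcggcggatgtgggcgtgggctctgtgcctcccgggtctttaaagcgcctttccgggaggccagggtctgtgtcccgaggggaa
Prc1: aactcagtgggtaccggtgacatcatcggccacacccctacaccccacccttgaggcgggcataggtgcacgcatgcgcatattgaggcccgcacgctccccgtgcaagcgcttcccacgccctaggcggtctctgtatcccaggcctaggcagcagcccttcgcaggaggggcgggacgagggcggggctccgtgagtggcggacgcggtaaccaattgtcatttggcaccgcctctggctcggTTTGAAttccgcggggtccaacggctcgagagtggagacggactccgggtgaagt
Cdc20: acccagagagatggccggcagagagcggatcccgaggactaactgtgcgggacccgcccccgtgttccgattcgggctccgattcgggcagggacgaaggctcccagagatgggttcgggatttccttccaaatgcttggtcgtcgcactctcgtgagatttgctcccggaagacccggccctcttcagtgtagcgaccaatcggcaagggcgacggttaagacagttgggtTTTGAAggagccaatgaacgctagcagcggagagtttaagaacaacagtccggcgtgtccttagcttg
Mcm6 holds 3 matches, of which the pair at -110 and -106 overlaps and the other is at -47. Uhrf1 has 1 E2F match at -185; the window of its other RefSeq start holds none. TTTGAA sits at -5 in Prc1 and -18 in Cdc20, counted from the start site. In the window of the other RefSeq start of Prc1 it sits at -30.

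Disease-associated genes had mostly positive changes at 6 weeks, and Axl was the 1 member that passed in limma. Axl had 26202, 38061, 30610 and 14773 normalized counts in A to D at 6 weeks and 8484, 14976, 14835 and 8924 in A to D at 3 weeks. NPC 6w D lay under NPC 3w B and C, so the ages overlapped. The fold was 2.28 (1.64 to 3.15, adjusted p = 0.0207; 0.0117 without NPC 3w C), and 37280 normalized counts were the mean at 9 weeks.

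All 36 genes on the list were tested; 32 had a positive log2 change, 13 were higher and 0 lower at an unadjusted p under 0.05, and the median was 0.43, or 0.60 without NPC 3w C. DESeq2 called 6 of the 36 and edgeR only Axl. Itgax, the integrin CD11c, had 3541, 4050.3, 3560 and 2399 normalized counts at 6 weeks and 1382, 1630, 790.4 and 1633 at 3 weeks (adjusted p = 0.0576; 0.234 without NPC 3w C). Ch25h, which makes 25-hydroxycholesterol, had 508, 418, 498 and 320.3 at 6 weeks and 71.3, 126, 94.9 and 60.8 at 3 weeks, with no overlap (adjusted p = 0.104; 0.155 without NPC 3w C). Cst7, an inhibitor of cathepsins, had 1827, 2665, 2400.4 and 958 at 6 weeks and 688, 1106, 1161 and 862 at 3 weeks, and NPC 6w D lay inside the range at 3 weeks (adjusted p = 0.195; 0.207 without NPC 3w C). Ch25h and Cst7 were picked after their values were seen.

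The same 2 libraries that were high for this list were also high for Gfap and Mbp, single markers of other glia. Gfap, the intermediate filament of astrocytes, had 572, 2562, 2053 and 193 normalized counts in A to D at 6 weeks and 174, 386, 178 and 171 in A to D at 3 weeks. Mbp, a myelin protein gene, had 4500.5, 13017, 11117 and 2271 at 6 weeks and 2778, 2508, 1918 and 1902 at 3 weeks. NPC 6w B and C were high for both, and neither gene passed in limma (adjusted p = 0.163 for Gfap and 0.193 for Mbp; 0.352 and 0.462 without NPC 3w C). On the reads, edgeR and DESeq2 both called Gfap higher, and DESeq2 called Mbp higher. The mean log2 level of the disease-associated list was 11.43, 11.96, 11.92 and 11.03 in A to D at 6 weeks and 10.66, 11.14, 11.30 and 10.93 at 3 weeks.

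Over the whole astrocyte and Bergmann glia list, 12 of 13 markers were detected in all 8 libraries and Gdf10 was at 0 in some; the summed level ran from 10198 to 16211 normalized counts at 6 weeks and from 9402 to 11540 at 3 weeks. The oligodendrocyte list summed to 6837 to 19847 at 6 weeks and 6941 to 8871 at 3 weeks, with Mog, Mal, Cldn11, Ermn, Opalin, Ugt8a, Aspa and Sox10 at 0 in at least 1 library. Neither list had a member past the limma threshold (2 higher and 0 lower at an unadjusted p under 0.05 in each), and edgeR and DESeq2 called none but the genes just named. Log2 changes were positive in 12 and negative in 1 of the 13 astrocyte genes tested. Of the 13 oligodendrocyte genes tested, 5 were positive and 8 negative, so Mbp does not stand for its list. Without NPC 3w C the astrocyte list had a median of 0.89 and the oligodendrocyte list -0.05, against 0.81 and -0.16 with it. Without NPC 6w B and C the median of the disease-associated list was 0.03 in place of 0.43, that of the astrocyte list 0.06 in place of 0.81, and the log2 change of Axl 0.79 in place of 1.19 (adjusted p = 0.387). With NPC 3w C left out as well, the medians of these lists were 0.17 and 0.04. The endothelial and pericyte list had a median of 0.91, with 11 positive and 2 negative of 13 genes tested and none past limma, edgeR or DESeq2. Its median was 1.11 without NPC 6w B and C, and 0.67 with NPC 3w C left out as well. Only 5 of its 14 markers were detected in all 8 libraries. The part of other cells in these values was not tested. The mitosis and DNA replication lists kept medians of 1.07 and 0.48 without NPC 6w B and C. With NPC 3w C left out as well, they were 1.08 and 0.48.

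**Figure D4:**
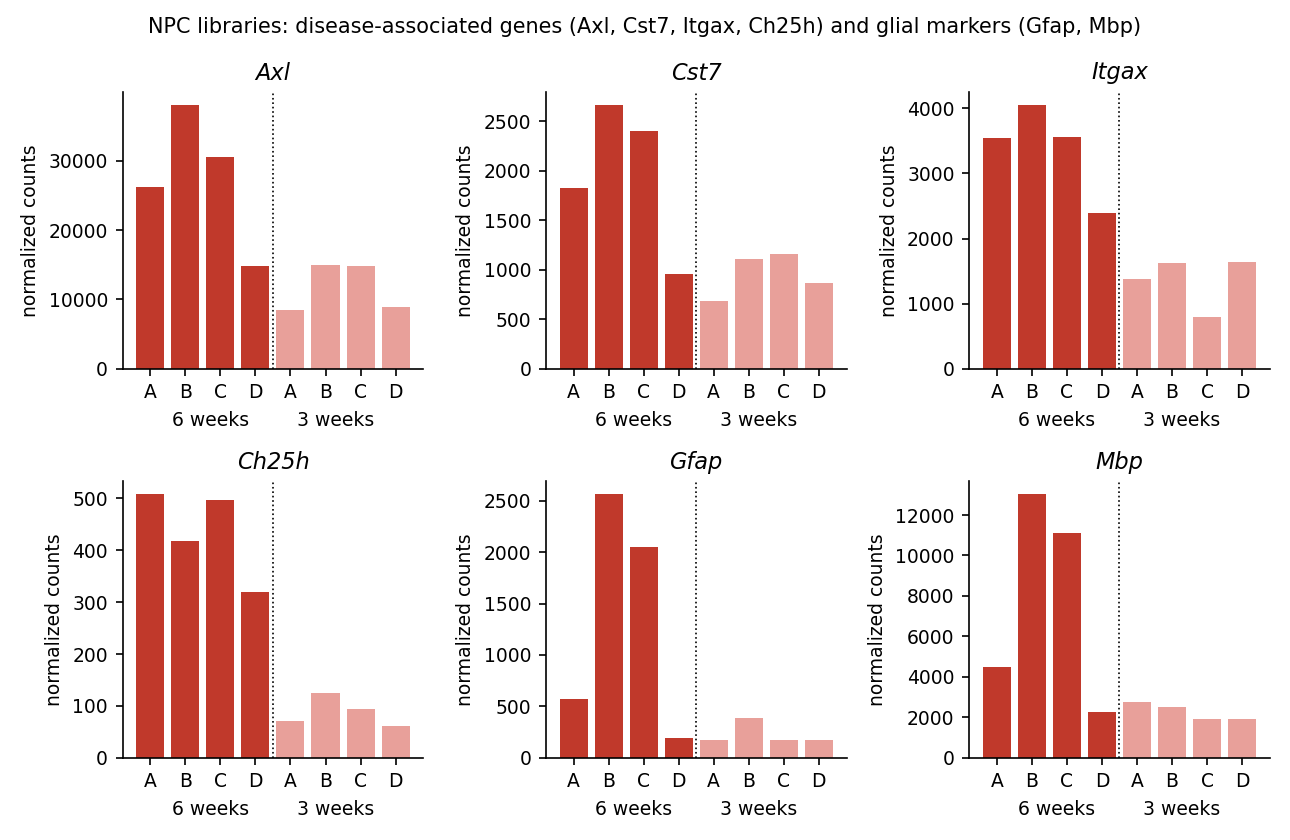
Normalized counts (bars, from 0) of 4 disease-associated genes and of Gfap and Mbp in each NPC library, A to D at 6 weeks left and A to D at 3 weeks right. NPC 6w B and C are the highest for Axl, Cst7, Gfap and Mbp, while Itgax and Ch25h are above all libraries at 3 weeks in all 4 libraries at 6 weeks.

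Other genes that rose have varied roles. St14, a membrane serine protease, had 839, 1335, 819 and 604 normalized counts at 6 weeks and 338, 397, 182 and 256 at 3 weeks, a rise of 3.06-fold (2.04 to 4.61, adjusted p = 0.0116; 0.0243 without NPC 3w C), and averaged 2094 at 9 weeks. Fam129a, a gene of the Niban family, had 714, 698, 489 and 578 at 6 weeks and 364, 307, 88.4 and 262 at 3 weeks, a rise of 2.71-fold (adjusted p = 0.0207; 0.0234 without NPC 3w C). Osbpl3, of the oxysterol-binding protein family, rose 3.59-fold (adjusted p = 0.0324; 0.106 without NPC 3w C). No libraries overlapped for these 3 genes. The remaining 7 genes that rose were named after their values were seen, to complete the 23: Mtfr2, E2f8, Exo1, Celf4, Tcf19, Rassf3 and Rtn1. Their folds ran from 1.54 in Rtn1 to 6.17 in Mtfr2, and none passed without NPC 3w C (adjusted p from 0.0521 to 0.114).

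Among the genes that fell was a chemokine receptor. Ccr1, a receptor for Ccl3 and Ccl5, had 293, 207, 254 and 160.2 normalized counts in A to D at 6 weeks and 497, 786, 1213 and 384 in A to D at 3 weeks. NPC 3w C was the highest, and no libraries overlapped. Ccr1 fell by 1.55 on the log2 scale (± 0.27 SE, adjusted p = 0.0108; 0.0224 without NPC 3w C). In WT it averaged 2283 ± 364 at 6 weeks and 2831 ± 514 at 3 weeks (SD, n = 4 each), above every NPC library at both ages.

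Tmem44, a membrane protein of little known function, had 997, 935, 1106 and 1268 normalized counts at 6 weeks and 1949, 2325, 2410.2 and 1826 at 3 weeks, and fell by 0.98 on the log2 scale (± 0.15 SE, adjusted p = 0.00435; 0.00642 without NPC 3w C). Gpr165 had 2307, 1465, 1559 and 2526 at 6 weeks and 3564, 3681, 6648 and 3849 at 3 weeks, and fell by 1.16 (± 0.21 SE, adjusted p = 0.0139; 0.0394 without NPC 3w C). Gpr165 averaged 15429 ± 798 in WT at 6 weeks and 18022 ± 4062 in WT at 3 weeks, so both NPC ages lay far under WT. Ccdc162, a coiled-coil gene, had 53.7, 62.1, 62.3 and 99.6 at 6 weeks and 143, 190.0, 178 and 169.7 at 3 weeks (log2 change -1.31, adjusted p = 0.0139; 0.0233 without NPC 3w C).

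Crybb1 had 5834, 6542, 8017 and 7848 normalized counts at 6 weeks and 11080, 11964, 25904 and 19308 at 3 weeks. Its log2 change was a fall of -1.20 (± 0.24 SE, adjusted p = 0.0237), and without NPC 3w C the change was -0.97 (adjusted p = 0.0859). Ddah2 and Clec4a3 fell by 0.65 and 0.80 (adjusted p = 0.0322 and 0.0397), and neither passed without NPC 3w C (0.102 and 0.106). Clec4a3, a C-type lectin receptor, has close copies in its gene cluster, so its counts are uncertain. The remaining falls, 6330419J24Rik and Slc22a21, did not pass without NPC 3w C either (adjusted p = 0.0728 and 0.0554).

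Of the 30 homeostatic genes, Crybb1 was the 1 that fell in limma and edgeR, DESeq2 called Crybb1 and Fcrls lower, and none rose by any of these tools. The list's median log2 change was -0.15, with 26 of 30 values negative and 8 lower at an unadjusted p under 0.05, and it was -0.14 without NPC 3w C. Fcrls, an Fc receptor-like microglial gene, had 42428, 48271, 51178 and 41971 normalized counts at 6 weeks and 58676, 68152, 73126 and 71245 at 3 weeks, with no overlap (limma adjusted p = 0.0665; 0.150 without NPC 3w C). P2ry12, the receptor by which microglia sense ADP, had 151390 to 171690 at 6 weeks and 172000 to 231070 at 3 weeks, ranges that nearly touch (adjusted p = 0.524; 0.846 without NPC 3w C). The values of Csf1r and Cx3cr1 overlapped between the ages, with log2 changes of 0.17 ± 0.13 and -0.03 ± 0.17 (SE), and of -0.01 and -0.22 without NPC 3w C.

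Inflammatory genes had no member past the limma threshold among 27 tested, with 9 higher and 1 lower at an unadjusted p under 0.05 and a median log2 change of 0.42 (0.60 without NPC 3w C). Tnf had 360, 533, 260.2 and 287 normalized counts at 6 weeks and 163, 96.1, 108 and 113 at 3 weeks, with no overlap (log2 change 1.55 ± 0.36 SE, adjusted p = 0.0546; 0.102 without NPC 3w C). It passed in edgeR, and with Il6 in DESeq2. Il6 had 35.0, 43.7, 45.6 and 84.0 at 6 weeks and 21.8, 12.8, 14.3 and 13.6 at 3 weeks, also with no overlap (adjusted p = 0.0665; 0.150 without NPC 3w C). Tlr2, a sensor of bacterial lipoproteins, passed in limma without NPC 3w C (adjusted p = 0.393 with it and 0.0243 without it); that library, at 16701 normalized counts, lay above the other 7. Tlr2 was picked after its values were seen.

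The lists of storage and lipid handling had no member past the limma threshold between these ages. Of 40 lysosomal hydrolases and membrane proteins, none passed in limma or edgeR and 1, Psap, in DESeq2; 7 were higher and 0 lower at an unadjusted p under 0.05, and the median log2 change was 0.05, or 0.16 without NPC 3w C. Psap, the precursor of the saposins that help degrade sphingolipids, had 172500, 226070, 227470 and 141440 normalized counts at 6 weeks and 138280, 118280, 137240 and 131230 at 3 weeks (adjusted p = 0.114; 0.135 without NPC 3w C). The 25 genes of sterol synthesis and uptake had a median of -0.05, which turned to 0.04 without NPC 3w C, with 1 higher and 0 lower at an unadjusted p under 0.05 and none past limma, edgeR or DESeq2. With NPC 6w B and C left out as well as NPC 3w C, the sterol median was -0.11 and the lysosomal median -0.02. Among 23 genes of lipid efflux and storage none passed in limma or edgeR, and 4 were higher and 1 lower at an unadjusted p under 0.05; the median was 0.06, or 0.03 without NPC 3w C. Dgat2, which makes triglycerides, had 1028, 1316, 817 and 955 at 6 weeks and 418, 541, 786 and 465 at 3 weeks, and passed without NPC 3w C (adjusted p = 0.0512 with it and 0.0115 without it) and in DESeq2.

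The interferon list had a median of 0.25 over 39 genes (0.24 without NPC 3w C), with 4 higher and 0 lower at an unadjusted p under 0.05 and none past limma, edgeR or DESeq2. Oxidative phosphorylation and ribosomal protein genes had medians that also turned with NPC 3w C, as did that of the V-ATPase proton pump (-0.13 with it and 0.05 without it over 15 genes). The median log2 change of 40 oxidative phosphorylation genes was -0.29 with it and 0.05 without it, and that of 38 ribosomal protein genes -0.26 and 0.15. With NPC 6w B and C left out as well, these medians were negative again, at -0.31 and -0.23, and that of the V-ATPase -0.11. Without NPC 6w B and C alone they were -0.69, -0.60 and -0.27. With all libraries in, neither the oxidative phosphorylation nor the ribosomal protein list had a member past limma, edgeR or DESeq2. Each had 1 lower and 0 higher at an unadjusted p under 0.05. Ribosomal genes summed to 208118 normalized counts in NPC 3w C, against 62683 to 77297 in the other libraries at 3 weeks. Across 13407 genes, log2 change and transcript length had a Spearman rho of 0.27 with NPC 3w C and -0.07 without it, as a description over genes that share the same libraries.

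WT mice of the same ages gave the background of age alone. There 6 genes rose and 2 fell (0.0427% and 0.0142% of 14046), or 4.85% and 4.86% at an unadjusted p under 0.05. Nek2 passed in both genotypes, with WT values of 31.2 ± 8.07 normalized counts at 6 weeks and 8.502 ± 4.38 at 3 weeks (SD, n = 4 each). Of the 32 genes, 27 had the same sign in WT and 31 a larger change in NPC, the genotype on which they were chosen. The mitosis list had a median of 1.01 in NPC and 0.89 in WT, and the DNA replication list had 0.48 in NPC and 0.16 in WT. Taken gene by gene, the NPC change minus the WT change had a median of 0.32 for the mitosis list and 0.27 for the DNA replication list.

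The difference itself was tested as the NPC change minus the WT change. No gene passed in limma in either direction (0% higher and 0% lower; 1237 genes at an unadjusted p under 0.05, smallest adjusted p 0.564), none in edgeR, and 1, E2f8, in DESeq2. Without NPC 3w C the limma counts were again 0 and 0; the differences of single genes given next include that library. The genes that rose or fell in NPC are therefore not shown to differ from WT in their change. E2f8, an atypical E2F repressor, had 95.7, 39.1, 76.7 and 102.5 normalized counts in NPC at 6 weeks and 29.3, 23.5, 2.60 and 18.9 in NPC at 3 weeks, against 19.6 ± 12.2 in WT at 6 weeks and 34.5 ± 11.1 in WT at 3 weeks; its difference of log2 changes was 3.21 ± 0.67 (SE). Uhrf1 averaged 148 ± 37.7 in WT at 6 weeks and 131 ± 21.9 in WT at 3 weeks, a difference of 1.34 ± 0.30. Rassf3 gave 0.91 ± 0.22. For the 31 genes of the DNA replication list 8 differences were higher and 0 lower at an unadjusted p under 0.05, and for the 31 of the mitosis list 2 higher and 1 lower. The 36 disease-associated genes had 7 higher and 0 lower, and the 30 homeostatic genes 0 higher and 9 lower. Over all 14046 genes tested, 618 were higher and 619 lower. The largest differences under the naming rule included Serpinb1c, with 259 in NPC at 6 weeks and 140.2 in NPC at 3 weeks, against 4.44 in WT at 6 weeks and 11.2 in WT at 3 weeks, and Cxcr3, with 65.5 and 164 in NPC at 6 and 3 weeks, against 29.7 and 18.0 in WT at 6 and 3 weeks (mean normalized counts). The WT means of Serpinb1c lay near the filter of 10 normalized counts, so its change in WT is uncertain. For Cxcr3 the NPC mean at 3 weeks rested on NPC 3w C, at 386, with 70.4 to 108 in the other 3 libraries.

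**Figure D5:**
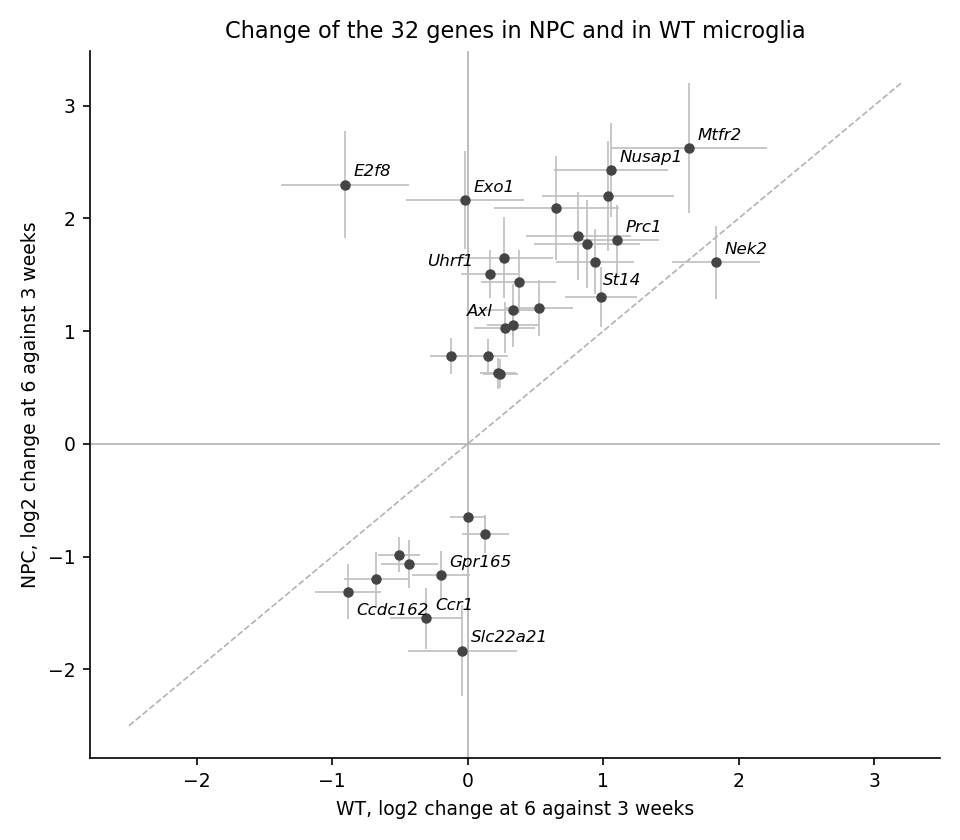
Log2 change at 6 against 3 weeks in NPC (y) and in WT (x) for the 32 genes past the threshold in NPC, with bars of 1 SE; the dashed line marks equal change. Of the 32, 27 share their sign and 31 have the larger change in NPC; these genes were chosen by the NPC axis, and no difference passed in limma.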

How the data were processed

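Normalized counts, a signal, are what the authors deposited, made by dividing counts by a size factor per library; the submitters' processing notes name FastQC 0.11.4, STAR 2.5.1b, DESeq2 and build mm9, and the annotation and counting tool are not given in the sources used here. Values were whole multiples of 1 step per library (tolerance 1e-06), which gave back whole reads. On these reads edgeR and DESeq2 estimated the spread between the libraries of a group. Values were tested as log2(value + 1), which understates changes of low genes, with R 4.3.3 and limma 3.58.1 (trend, robust, two-sided) on 31 untreated libraries (23 residual degrees of freedom), for genes reaching 10 normalized counts in 3 or more libraries, Benjamini-Hochberg adjusted over 14046 genes, threshold 0.05. The procedure was tested on simulated reads. These held no library like NPC 3w C and no trend with transcript length, so that test cannot speak to the effect of such libraries. Alternatives included edgeR 4.0.16 and DESeq2 1.42.0 on the reads, a replicate block and left-out libraries; counts of groups without overlap and list medians without libraries were added after seeing the data. The members and the 21 pathway and 9 marker lists were chosen with earlier results of these data known. Named genes are up to 12 rises and 12 falls with a mean of 100 or more in the higher group and no overlap, the 2 smallest adjusted p per list, the largest differences from WT, and markers; others complete the calls or are marked. Ly6g, Trac and Ahsp are not analysed here. Promoters come from RefSeq (GRCm38.p6), joined by symbol.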

Additional observations from a re-analysis of the deposited data

Results flagged for a closer look

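In groups of 4 libraries, a library was marked when its gap to the nearest other over the group's range exceeded Dixon's 95% critical value. This was checked in 234 groups of values and marked 21, and chance marks about 1 in 20. NPC 3w C accounted for 11 of the 21. It was the high library at 3 weeks for Bub1 (102.7 normalized counts), Ddah2 (2107), Gpr165 (6648), Atp6v0b (26329), Cyc1 (6735) and Ndufb5 (3253), and the low one for Itgam (18335). Its 12003 genes with at least 3 reads were the fewest at 3 weeks, and its sums over the ribosomal protein list (208118), the TGF-beta list (140737) and the erythrocyte list (741) were the highest.

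NPC 6w D was the low library at 6 weeks for Bub1 (99.6), Mcm6 (834), Tmem119 (161398) and Csf1r (553735). NPC 6w A was high for Nusap1 (358) and low for Cx3cr1 (77123). At 3 weeks NPC 3w A was high for Dtl (92.2) and Il6 (21.8), and NPC 3w B for Gfap (386) and Cldn5 (6.404).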

How the results depend on the processing

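With 8 NPC libraries and 4 mice a group, calls depended on the setting more than directions did: all 32 genes kept their direction in each of the 30 alternatives. The 23 rises in NPC became 37 with a pseudocount of 5, 35 after rescaling to equal totals, 15 after quantile normalization, 0 with only the 8 NPC libraries, 3 with all 41 libraries, 97 in DESeq2, 75 with array weights, 3 without NPC 6w B and C, and 8 without NPC 6w B, NPC 6w C and NPC 3w C. The 9 falls became 0 with only the 8 NPC libraries, 0 with all 41, 48 in DESeq2, 28 with array weights, 0 without NPC 6w B and C and 0 without the 3 libraries. In WT the 6 rises became 3 after quantile normalization, 0 with only the 16 libraries at 3 and 6 weeks, 0 with all 41, 29 in DESeq2, 659 with array weights and 28 without the 3 libraries; the 2 falls became 1, 0, 1, 11, 768 and 13 under the same settings in that order. The difference between genotypes, with 0 higher genes, gave 1 in DESeq2, 2 with array weights, 1 without NPC 6w B and C and 2 without the 3 libraries. The cause was not tested. Leaving out 1 library at a time gave 3 to 38 rises and 2 to 15 falls in NPC, 1 to 58 rises and 1 to 126 falls in WT, and 0 differences in each direction.

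With the library letter as a replicate block, 17 genes rose and 7 fell, 23 of the 24 among the 32. Deviations of libraries that share a letter correlated at 0.21 for A, 0.0986 for B, 0.20 for C and 0.11 for D; B was under 0.1, so the letters were not treated as pairs, and not every library correlated best with its own letter.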
